A study of Homo sapiens with 4 samples.

Results

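Ribosome biogenesis is the assembly of the ribosomal subunits. It starts in the nucleolus, where RNA polymerase I transcribes the precursor of ribosomal RNA (rRNA). Small nucleolar ribonucleoproteins (RNPs) modify that RNA, the small-subunit processome and a series of large-subunit factors fold and cut it, and late factors release the subunits. The genes that encode these factors are textbook targets of c-MYC, a transcription factor that binds DNA as a dimer with MAX, preferably at the E-box CACGTG. The 50 genes described here are a list of nucleolar and ribosome assembly factors chosen by function, out of 19663 protein-coding genes. A gene was said to have a promoter peak where a peak had its summit no more than 1 kb from the transcription start (TSS) of any of its protein-coding transcripts. Membership of the list uses no value of a peak.

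Binding had been profiled by chromatin immunoprecipitation and sequencing in MIA PaCa-2 cells, a long-established line from a pancreatic ductal adenocarcinoma. All cells were kept for 8 h in 1 of 3 conditions, which were the solvent DMSO, the inhibitor AMG510 at 100 nM and the MEK inhibitor trametinib at 10 nM. There was 1 c-MYC library for each condition and 1 control library from DMSO-treated cells made with non-specific IgG. With 1 library per group, no difference below has a replicate check and no test was made.

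The depth in peak calling, recovered from the lists and not counted from alignments, came to 22700000 (IgG) to 24800000 (trametinib) tags, where a tag is an aligned read as the peak caller counts it, extended to a fixed length. The mapped-read totals given by the study order the libraries differently, with trametinib the lowest, and were not used here. The lists hold 2966 peaks for IgG, 9552 for c-MYC with DMSO, 10378 with AMG510 and 5431 with trametinib. The whole number of tags piled up at each summit was recovered from the deposited values. It is given below with its exact 95% Poisson interval, which covers counting error only and is too narrow because both mates of a pair can count. At the genome-wide background, 7 or 8 tags sufficed for a call. At a gene without a peak the number of tags is not known, so the absence of a call does not mean a tag count of 0.

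Peaks of c-MYC were called at most of the 50 promoters in DMSO, and at fewer under each inhibitor. A promoter peak was called at 36 of the 50 genes in DMSO, against 24.2% of all protein-coding genes. The count was 29 in AMG510 (15.3% of all genes) and 21 in trametinib (11.8% of all genes). In the IgG list none of the 50 had one (0.559% of all genes). A peak in any c-MYC library was called at 43 members and in none at 7, where all genes gave 68.3% with none. Of the 36 with a DMSO peak, 18 also had one under both drugs (23.1% of all genes with a DMSO promoter peak), 7 in AMG510 alone (19.8%) and 11 under neither (44.9%). Peaks under a drug without one in DMSO were called at 4 genes in AMG510 (6.47% of all genes without a DMSO promoter peak) and 3 in trametinib (4.33%). No member had a peak in DMSO and trametinib without one in AMG510, a pattern seen at 12.1% of all genes with a DMSO promoter peak.

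**Figure D1:**
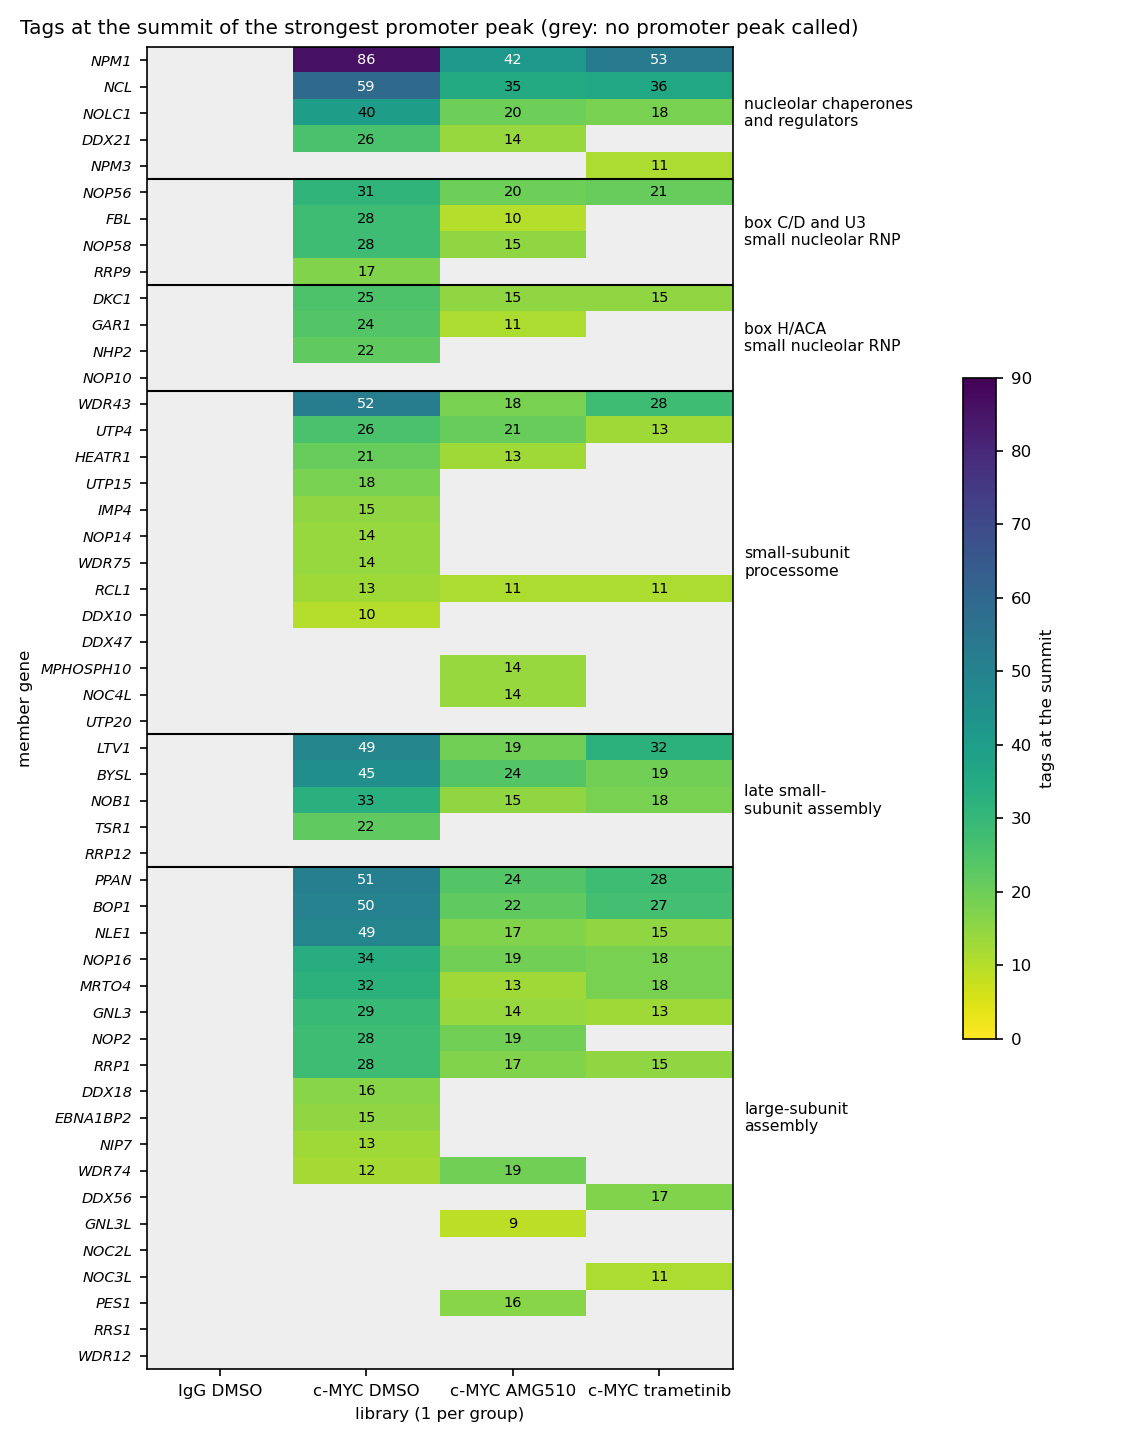
Heat map of tags at the summit of the strongest promoter peak of each of the 50 genes (rows, grouped by role and ordered by tags in DMSO) in the 4 libraries (columns, 1 library each). Grey cells had no promoter peak called. The DMSO column holds 36 values from 10 to 86 tags, the AMG510 column 29 values from 9 to 42, the trametinib column 21 values from 11 to 53, and the IgG column none.

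The E-box letters lay close to many of these summits. The sequences below are those of the 8 members with the largest fold enrichment in DMSO among those with CACGTG within 100 bp of the DMSO summit. They are shown because they place the letters that c-MYC and MAX recognise beside the recovered summits. Each is the 30 bases around the E-box nearest the summit, 5′ to 3′ on the strand of the gene, from GRCh38, with the E-box in capitals.
LTV1: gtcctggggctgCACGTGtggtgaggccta
NPM1: gCACGTGgttgcCACGTGgttgggggaggg
BYSL: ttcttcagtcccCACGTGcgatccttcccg
NLE1: ctctttctcctcCACGTGgggacgcaggat
NCL: agcgcggcctgcCACGTGggccgcgccgcg
GAR1: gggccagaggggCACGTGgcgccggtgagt
WDR43: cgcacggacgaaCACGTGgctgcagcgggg
GNL3: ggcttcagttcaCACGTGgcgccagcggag

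The LTV1 stretch is at chr6:143843354-143843383 (plus strand), in the 5′ UTR of exon 1, with the E-box centre 52.5 bp from the summit in DMSO. The NPM1 stretch is at chr5:171388573-171388602 (plus strand), in intron 1, and holds 2 E-boxes, the nearer one 10.5 bp from the summit. The BYSL stretch is at chr6:41921515-41921544 (plus strand), and its E-box is in the 5′ UTR, 48.5 bp from the summit. The E-boxes of the next 3 genes also lay close to their DMSO summits. The NLE1 stretch, at chr17:35142274-35142303 (minus strand), has its E-box in the 5′ UTR 10.5 bp from the summit. The NCL stretch, at chr2:231463972-231464001 (minus strand), has its E-box in intron 1, 1.5 bp from the summit. In GAR1, at chr4:109815781-109815810 (plus strand), the E-box is in the 5′ UTR 4.5 bp from the summit. The last 2 E-boxes were farther from the summit. They were close to the canonical TSS, as were those of NLE1 (15 bp), LTV1 and BYSL (30 bp each) and GAR1 (33 bp). Those of NPM1 and NCL were 738 and 498 bp from it. The WDR43 stretch, at chr2:28894658-28894687 (plus strand), lies with its E-box 72.5 bp from the summit and 5 bp from the canonical TSS. The GNL3 stretch, at chr3:52686026-52686055 (plus strand), has its E-box 95.5 bp from the summit and 8 bp from the canonical TSS.

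Over all members with a promoter peak in DMSO, 13 of 36 (36.1%) had CACGTG within 100 bp of the summit, against 17.3% of all genes with a promoter peak. The motif is its own reverse complement, so a match counts for both strands. In AMG510 the letters were found at 17 of 29 member summits (58.6%, all genes 14.5%), and in trametinib at 11 of 21 (52.4%, all genes 17.6%). The DMSO share rested on the distance chosen, since within 250 bp it was 61.1% (all genes 26.2%) and within 50 bp 13.9% (all genes 10.6%). Within 250 bp the AMG510 share was 69.0% (all genes 23.3%) and the trametinib share 71.4% (all genes 27.5%). Of the 25 members called in both DMSO and AMG510, 12 had CACGTG within 100 bp in DMSO and 15 in AMG510. Within 250 bp the count was 17 in each. The median width of the member peaks was 424 bp in DMSO, 274 bp in AMG510 and 301 bp in trametinib. Between DMSO and AMG510 the distance from the strongest summit to the nearest E-box changed in both directions. In DDX21 the distance was 104.5 bp in DMSO and 3.5 bp in AMG510, and in RRP1 it was 118.5 bp and 28.5 bp. The opposite held in FBL, with 75.5 bp in DMSO and 259.5 bp in AMG510. Among other members, the AMG510 summit was nearer at NOP58, UTP4 and RCL1. It was farther at NCL, GAR1, LTV1, BYSL, BOP1 and DKC1, so there was no single direction.

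The letters were also common in the promoter sequences of the members, counted without regard to peaks. Of the 43 members with a promoter sequence in the RefSeq set (GRCh38, 250 bases before to 50 after the start), 20 (46.5%) held CACGTG, against 11.0% of 15307 protein-coding promoters of the same length. With CACGCG or its reverse complement CGCGTG added, the count was 28 (65.1%) against 26.5%. NOP10 and UTP20 hold CACGTG in that window and had no promoter peak in any library. The others of those 20 had a promoter peak in a c-MYC library, as did 43 of all 50 members. Over all genes, 68.3% had none. Among the 18 members called in all 3 c-MYC libraries, 9 had CACGTG within 100 bp of the DMSO summit, and among the 11 called in DMSO alone, 1 did (EBNA1BP2). Within 250 bp these counts were 12 and 5. The 18 had stronger DMSO peaks than the 11, with a median fold enrichment of 8.79 against 4.95. Their DMSO peaks were also wider at the median. No share over all genes is given for these 2 classes. Whether the E-box counts differ at equal peak strength or width was not tested.

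**Figure D2:**
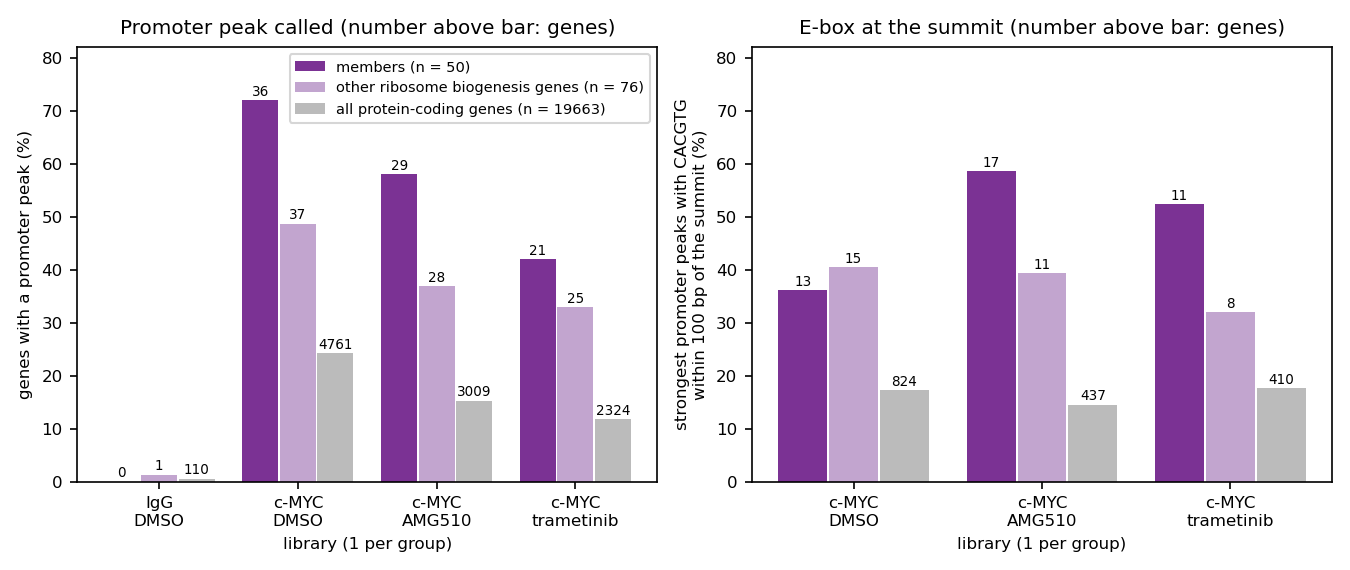
Left, percent of genes with a promoter peak in each library for the 50 members, 76 other ribosome biogenesis genes and all 19663 protein-coding genes. Right, percent of the strongest promoter peaks with CACGTG within 100 bp of the summit in the 3 c-MYC libraries, with the number of genes above each bar. Members stand at 36, 29 and 21 genes called in the c-MYC libraries, and at 13, 17 and 11 genes with the motif.

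Summits lay mostly just downstream of the start. In DMSO 28 of 36 were downstream of the nearest TSS, with a median of 85.5 bp (all genes 62.6% downstream). In AMG510 24 of 29 were (all genes 61.1%), and in trametinib 16 of 21 (all genes 61.4%). In DMSO, 15 summits were in intron 1 of the canonical transcript, 9 in coding exons, 5 in 5′ UTRs and 7 upstream of it. The most distant was that of NOP56 in DMSO, at -717 bp from the start, where a negative value is upstream. With TSSs within 500 bp or 2 kb the counts of members called were the same 36, 29 and 21. Another protein-coding gene had a TSS within 1 kb of the summit at 13 of the 36, and at UTP4 and UTP15 the other gene was the nearer one. At these promoters the peak cannot be given to one gene alone. PPAN shares its start with the read-through gene PPAN-P2RY11.

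**Figure D3:**
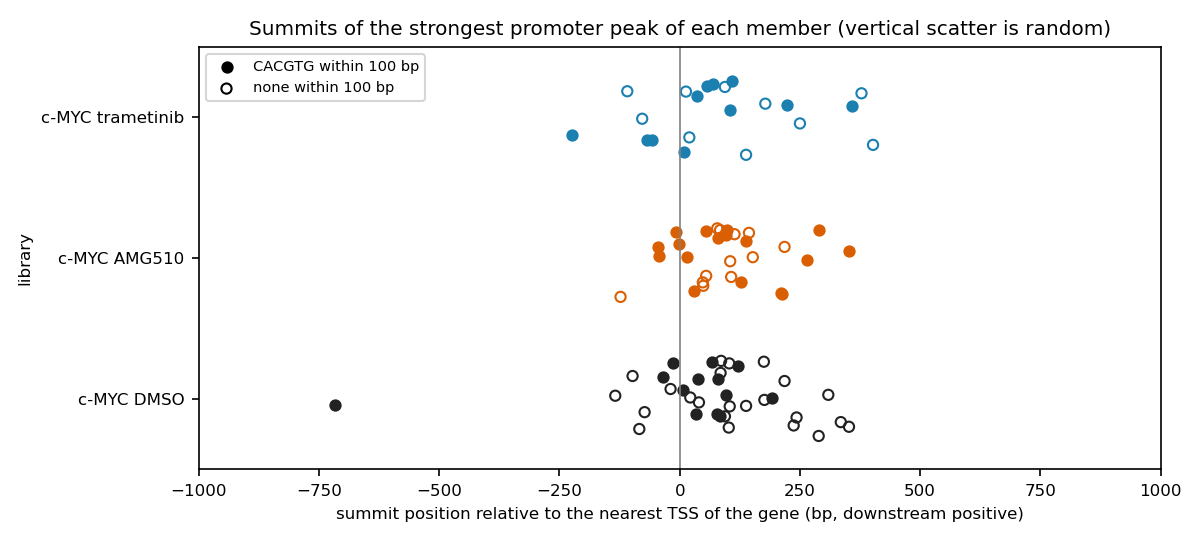
Position of each member's strongest summit relative to the nearest TSS of the gene (bp, downstream positive) in the 3 c-MYC libraries. Filled points have CACGTG within 100 bp and open points do not, and the vertical scatter within a library is random. Most points lie between the TSS and 400 bp downstream, with 28 of 36 downstream in DMSO.

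The nucleolar chaperones and regulators held the 2 summits with the most tags of the set, those of NPM1 and NCL. NPM1 encodes nucleophosmin, an abundant nucleolar chaperone of histones and ribosomal proteins. Its summit held 86 tags (68.8 to 106) in DMSO, 42 (30.3 to 56.8) in AMG510 and 53 (39.7 to 69.3) in trametinib. The DMSO peak was 11.6-fold over its background at chr5:171388598 and ranked 58 of the 9552 peaks by fold enrichment. NCL encodes nucleolin, an RNA-binding protein of the nucleolus. It had 59 tags (44.9 to 76.1) in DMSO, 35 (24.4 to 48.7) in AMG510 and 36 (25.2 to 49.8) in trametinib. Both drug values were lower than DMSO and close to each other. NCL had a fold enrichment of 9.59 with DMSO, 8.86 with AMG510 and 9.21 with trametinib, and it ranked 161 in the DMSO list, 97 in the AMG510 list and 79 in the trametinib list. NOLC1, a chaperone of small nucleolar RNPs, had 40 tags (28.6 to 54.5) in DMSO, 20 (12.2 to 30.9) in AMG510 and 18 (10.7 to 28.4) in trametinib. Its DMSO and AMG510 summits lay 247 bp apart. DDX21, an RNA helicase, had 26 tags (17 to 38.1) in DMSO and 14 (7.65 to 23.5) in AMG510, and no call in trametinib. NPM3, a relative of NPM1, was called in trametinib alone, with 11 tags (5.49 to 19.7) and a fold enrichment of 3.75, above 12.4% of the peaks of that list.

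The box C/D and U3 small nucleolar RNPs guide the methylation and early cutting of rRNA. All 4 of their core genes had a DMSO peak, 3 had one in AMG510 and 1 in trametinib (all genes 24.2%, 15.3% and 11.8%). FBL encodes the methyltransferase fibrillarin. It had 28 tags (18.6 to 40.5) at 8.74-fold in DMSO and 10 (4.80 to 18.4) at 3.65-fold in AMG510, and no peak was called in trametinib. NOP58, a scaffold of the same particle, had 28 tags (18.6 to 40.5) in DMSO and 15 (8.40 to 24.7) in AMG510, and no trametinib peak. NOP56, the partner scaffold, was the member of this group called in all 3 libraries. Its strongest peak held 31 tags in DMSO, 20 in AMG510 and 21 in trametinib, with the drug summits 1024 and 843 bp from the DMSO one. Its strongest peaks under the drugs are therefore at another site than in DMSO, where it had 2 promoter peaks. RRP9, a U3-specific protein, was called in DMSO alone, with 17 tags (9.90 to 27.2) at 6.11-fold.

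The box H/ACA genes encode the particle that turns uridine into pseudouridine. DKC1, the pseudouridine synthase dyskerin, was called in all 3 libraries, with 25 tags in DMSO and 15 in each drug. GAR1 had 24 tags (15.4 to 35.7) at 8.97-fold in DMSO and 11 (5.49 to 19.7) at 4.97-fold in AMG510, with no trametinib peak. NHP2 had 22 tags (13.8 to 33.3) in DMSO and no peak under either drug. NOP10, the remaining core protein, had none in any library. DKC1 is on the X chromosome, with its DMSO summit at chrX:154763260 in intron 1.

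The small-subunit processome, the large particle that first folds and cuts the small-subunit rRNA, had 9 of 13 genes called in DMSO. The count was 6 in AMG510 and 3 in trametinib (all genes 24.2% in DMSO, 15.3% and 11.8%). WDR43, of its early UTP-A subcomplex, was the strongest, with 52 tags (38.8 to 68.2) in DMSO, 18 (10.7 to 28.4) in AMG510 and 28 (18.6 to 40.5) in trametinib. Both drug values lay below the DMSO interval, with summits 1 and 21 bp from the DMSO summit. Other UTP-A genes went different ways. UTP4 was called in all 3, with 26, 21 and 13 tags in DMSO, AMG510 and trametinib. HEATR1 had 21 tags (13.0 to 32.1) in DMSO and 13 (6.92 to 22.2) in AMG510, where the 2 peaks did not overlap. UTP15, with 18 tags (10.7 to 28.4), and WDR75, with 14, were called in DMSO alone. RCL1 was the weakest gene called in all 3, with 13 tags in DMSO and 11 in each drug. The intervals of these 3 values overlap broadly. IMP4, with 15 tags (8.40 to 24.7), NOP14, with 14 (7.65 to 23.5), and DDX10, with 10, were called in DMSO alone. MPHOSPH10, the partner of IMP4 in this particle, and NOC4L, the partner of NOP14, each had 14 tags (7.65 to 23.5) in AMG510 alone. DDX47 and UTP20 had no peak.

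Late small-subunit factors had a peak at 4 of 5 genes in DMSO and at 3 in each drug (all genes 24.2%, 15.3% and 11.8%). The median DMSO fold enrichment of those 4 genes was 10.7, against 5.01 over all genes called. LTV1, an export-stage factor of the small subunit, had the largest fold enrichment of all members in DMSO (12.5, rank 33). It held 49 tags (36.3 to 64.8) in DMSO, 19 (11.4 to 29.7) in AMG510 and 32 (21.9 to 45.2) in trametinib. The trametinib interval overlapped the DMSO interval and the AMG510 interval did not. BYSL, which encodes bystin, had 45 tags (32.8 to 60.2) in DMSO, 24 (15.4 to 35.7) in AMG510 and 19 (11.4 to 29.7) in trametinib. NOB1, the endonuclease that makes the 3′ end of the mature small-subunit rRNA, had 33 tags (22.7 to 46.3), 15 (8.40 to 24.7) and 18 (10.7 to 28.4) in the same order. No CACGTG was found within 100 bp of any NOB1 summit. TSR1 was called in DMSO alone, with 22 tags (13.8 to 33.3) at 5.95-fold, and RRP12 in no library.

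The large-subunit factors were the largest group, with 12 of 19 called in DMSO, 11 in AMG510 and 9 in trametinib (all genes 24.2%, 15.3% and 11.8%). PPAN had 51 tags (38.0 to 67.1) in DMSO, 24 (15.4 to 35.7) in AMG510 and 28 (18.6 to 40.5) in trametinib. NLE1, the partner of the remodelling enzyme MDN1, had 49 tags (36.3 to 64.8), 17 (9.90 to 27.2) and 15 (8.40 to 24.7). Both drug intervals of NLE1 lay below the DMSO interval. GNL3, the GTPase nucleostemin, had 29 tags (19.4 to 41.6) in DMSO, 14 (7.65 to 23.5) in AMG510 and 13 (6.92 to 22.2) in trametinib. The PeBoW complex, which acts in the processing of large-subunit rRNA, differed in calls between its 3 genes. BOP1 had 50, 22 and 27 tags in DMSO, AMG510 and trametinib, PES1 had 16 (9.15 to 26) in AMG510 alone, and WDR12 had no peak. PES1 reached 6.95-fold in AMG510, above 97.2% of the peaks of that list, with CACGTG 65.5 bp from the summit.

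The other large-subunit genes held at most 34 tags in DMSO. NOP16, MRTO4 and RRP1 were called in all 3 libraries, with 34, 32 and 28 tags in DMSO, 19, 13 and 17 in AMG510, and 18, 18 and 15 in trametinib. NOP2, an rRNA methyltransferase, had 28 tags (18.6 to 40.5) in DMSO and 19 (11.4 to 29.7) in AMG510. Among members called in both conditions, WDR74 was the one with more tags under a drug than in DMSO, 12 (6.20 to 21.0) in DMSO and 19 (11.4 to 29.7) in AMG510, and these intervals overlap. Both summits are assigned through an alternative start, the DMSO summit being at -2001 bp from the canonical one. DDX18, EBNA1BP2 and NIP7 were called in DMSO alone, with 16, 15 and 13 tags. DDX56, an RNA helicase, had 17 tags (9.90 to 27.2) at 6.06-fold in trametinib alone. GNL3L, a relative of GNL3, had 9 tags (4.12 to 17.1) in AMG510 alone, and NOC3L had 11 (5.49 to 19.7) in trametinib alone. NOC2L and RRS1 had no peak in any library.

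Where a member was called in both conditions, its summit held fewer tags under AMG510 at 24 of 25 genes, the exception being WDR74. In trametinib this held at 18 of 18. Over all genes called in both conditions, the summit held fewer tags at 82.2% in AMG510 and at 80.3% in trametinib. The median log2 ratio of tags to DMSO was -0.91 in AMG510 and -0.88 in trametinib, against -0.47 and -0.42 over all genes called in both conditions (2045 and 1678). Both comparisons share the DMSO library, and each ratio is conditional on a call in both. The ratios set the strongest promoter peak of each library side by side. This was not the same site at NOP56 in either drug, nor at HEATR1 in AMG510, where the peaks did not overlap. Summits also lay apart within overlapping peaks, by 340 bp at RCL1 and 266 bp at NOP58 in AMG510, and by 333 bp at UTP4 in trametinib. A drug summit within 100 bp of a DMSO summit was found at 15 of the 36 DMSO members in AMG510 and 16 in trametinib (all genes 22.2% and 19.9%). The lowest ratio was -1.53 in AMG510, shared after rounding by NLE1 and WDR43, with counting intervals of -2.42 to -0.71 and -2.39 to -0.73. In trametinib it was NLE1 again, at -1.71 (-2.65 to -0.85). The smallest difference was at RCL1, at -0.24 in each drug (-1.54 to 1.03), an interval that includes no change.

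The members were also described within classes of DMSO fold enrichment. A class of high DMSO values tends to give low ratios by construction, since the DMSO tags are the denominator. The median DMSO fold enrichment was 6.65 over the 36 members and 5.01 over all genes called, and the median tags were 27 and 16. In AMG510 the median fold enrichment was 5.46 over the 29 members called and 4.71 over all genes called, and in trametinib 5.35 over 21 and 4.76. Among genes with a DMSO fold enrichment above 8, the AMG510 median was -1.13 over 13 members and -0.96 over all genes, and the trametinib median was -0.89 over 11 members and -0.90 over all genes. Among those between 5 and 8, it was -0.72 against -0.55 in AMG510 and -0.83 against -0.51 in trametinib. The genome-wide background, which scales with depth and extension length, was itself lower than in DMSO by a log2 difference of -0.15 in AMG510 and -0.07 in trametinib. Set over this background, the member medians were -0.75 and -0.81, against -0.32 and -0.34 over all genes. On the deposited fold enrichments they were -0.53 and -0.50, against -0.20 and -0.23 over all genes.

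**Figure D4:**
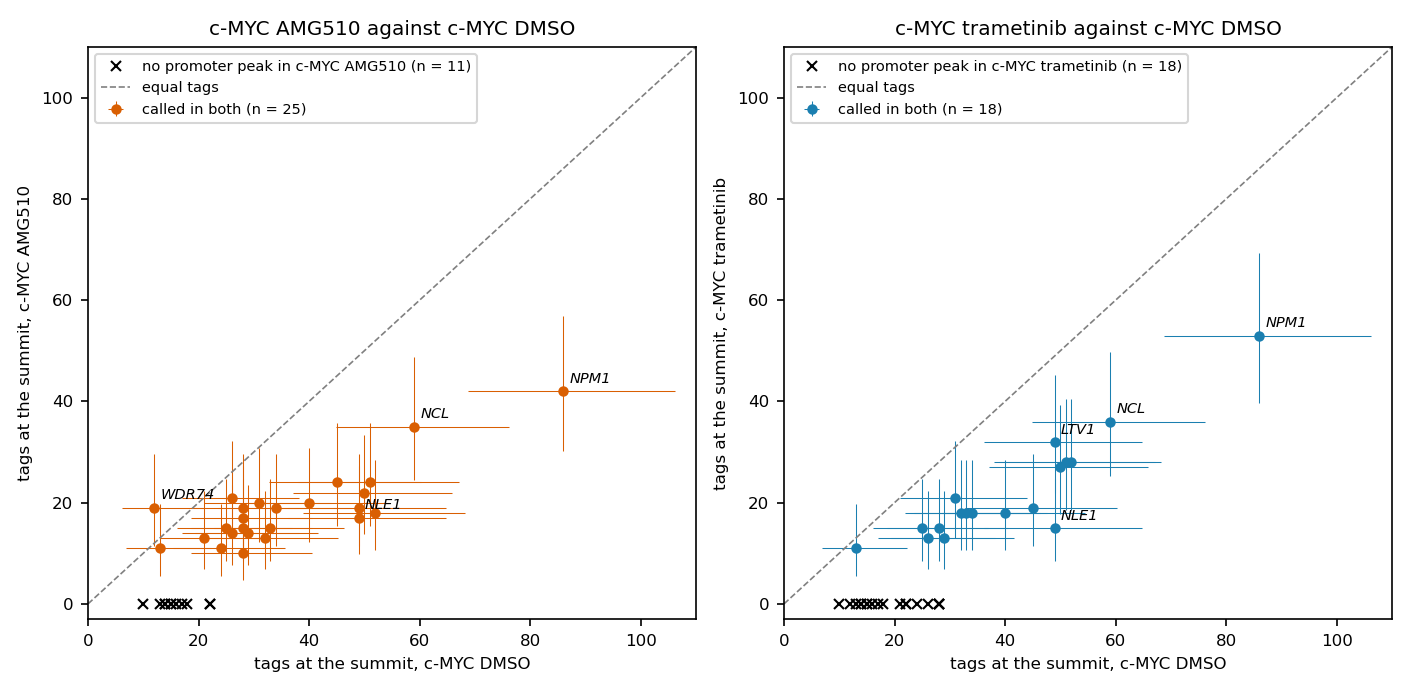
Tags at the summit in each drug library (vertical axis) against DMSO (horizontal axis) for members with a DMSO promoter peak, with exact 95% Poisson intervals as bars. Crosses at the base mark members with no promoter peak in that drug library, whose tag number is not known and need not be 0. Of the 25 members called in DMSO and AMG510, WDR74 alone lies above the dashed line of equal tags, and all 18 in trametinib lie below it. Over all genes called in both conditions, 82.2% in AMG510 and 80.3% in trametinib held fewer tags under the drug.

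Strong DMSO peaks were called again more often than weak ones, among members and among all genes. Of the 36 DMSO members, 25 were called again in AMG510, against 43.0% of all genes with a DMSO promoter peak, and 18 in trametinib, against 35.2%. A peak overlapping a DMSO promoter peak of the gene was called at 24 and 18 members (36.0% and 30.4% of all genes). All 13 members above 8-fold in DMSO were called again in AMG510 and 11 of them in trametinib, where all genes of that strength gave 87.3% and 82.8%. The 2 without a trametinib peak were GAR1 and FBL. Between 5-fold and 8-fold, 11 and 7 of 16 members were called again (all genes 50.9% and 43.0%). At 5-fold or less, 1 and 0 of 7 were (all genes 29.8% and 21.9%). Within each strength the trametinib shares of the members were near or below the background. The 11 members with no peak under either drug (30.6% of the 36, all genes 44.9%) had 10 to 22 tags in DMSO.

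Of the peaks that were not called again, some lay near the limit of calling and others well above it. The DMSO tags were compared with the number of tags needed for a call in the drug library. That number was taken at the DMSO local background, scaled by the drug to DMSO ratio of genome-wide backgrounds. The local background of the drug library itself is not known where no peak was called. For the 11 members without an AMG510 peak, DMSO tags were 1.30 to 2.2 times the number needed (median 1.78), and 4 were at least 2 times. For the 18 without a trametinib peak, they were 1.18 to 3.11 times (median 1.9), and 9 were at least 2 times. FBL, with 28 tags in DMSO where 9 would have sufficed in trametinib at that scaled background, had the highest ratio.

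The other genes of the pathway, a list of 76 further factors of both subunits, gave a lower share of occupied promoters than the members and a higher one than all genes. A promoter peak was called at 37 in DMSO (48.7%), 28 in AMG510 (36.8%) and 25 in trametinib (32.9%). In IgG, NAT10 had one, with 9 tags 211 bp upstream of its start. Their median DMSO fold enrichment was 5.47. PNO1, a late small-subunit factor, led with 52 tags at 11.9-fold in DMSO, 27 in AMG510 and 22 in trametinib. DIMT1, an rRNA methyltransferase, followed with 43, 27 and 24 tags. The median log2 ratio to DMSO over the genes called in both was -0.51 in AMG510 (20 genes) and -0.26 in trametinib (21 genes). CACGTG lay within 100 bp of the summit at 15 of the 37 in DMSO (40.5%, members 36.1%, all genes 17.3%).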

How the data were processed

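The authors ran Trimmomatic 0.39 on the read pairs, mapped them with BWA 0.7.17 on GRCh38, kept alignments of mapping quality 20 or more, removed duplicates with Picard, wrote each alignment as its own interval with bedtools 2.27.1, called peaks per library with MACS2 2.2.7.1 and removed those on the ENCODE exclusion list. Each deposited list gives, per peak, a score, the fold enrichment over background (a ratio), the −log10 p-value and −log10 q-value, and the summit offset. The genome-wide background and a genome size of 2700000000 gave the depth in calling. Tags at the summit were solved from the deposited ratio and −log10 p-value, and came out whole in 100% of peaks (tolerance 0.01 in −log10 p). The recovery of tags and the assignment of peaks to genes were tested on simulated peaks. The depth was not tested in this way.

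Genes were those of GENCODE 44, without the mitochondrial genome. Each contig of the lists was in the GRCh38 sequence used, and 1 peak per list ran past the end of a short contig. A gene with several promoter peaks was represented by the one of largest fold enrichment. Places refer to the canonical transcript. Python 3.11.15, numpy 2.4.6, scipy 1.17.1, pandas 2.3.3 and pysam 0.24.0 were used.

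Every member is accounted for. Tags with intervals were given for the 10 members of largest DMSO fold enrichment called in all 3 c-MYC libraries and the 6 largest called in DMSO alone. They were also given for the 6 largest called under 1 inhibitor beside DMSO, and each called under a drug but not in DMSO. Fold enrichment, rank and position were given for some of these. The members and lists were chosen with earlier results of these data known. What AMG510 targets is not reported here.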

Additional observations from a re-analysis of the deposited data

How the results depend on the processing

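No paired analysis was possible because groups held 1 library each, and no library could be left out. Of 85 recomputed summary values, 70 stayed within the limits set (counts within 1.5 times) and 15 moved, none in direction. At a fold enrichment above 5, members called in AMG510 numbered 19 (5.75% of all genes). At a score above 60, 26 were called for DMSO, 14 for AMG510 and 11 for trametinib (9.81%, 2.98% and 2.93% of all genes). Of the DMSO members at that score, 12 were called again in AMG510 (overlapping at 12) and 10 in trametinib (overlapping at 10). Over all genes called in DMSO at that score, the shares called again were 23.0% and 23.2%, and those overlapping 22.1% and 22.8%. With overlap taken as summits within 100 bp, 15 DMSO members were matched in AMG510 (22.2% of all genes with a DMSO promoter peak). The E-box shares within 50 bp were 13.9% for DMSO, 31.0% for AMG510 and 14.3% for trametinib (all genes 10.6%, 8.24% and 9.72%). The DMSO share was 61.1% within 250 bp (all genes 26.2%) and 58.3% inside the peak (all genes 23.5%). The last of these was an alternative chosen after seeing the data, as were the background-scaled ratios and the strength bins. Median log2 ratios on deposited fold enrichments were -0.53 in AMG510 and -0.50 in trametinib. These enrichments are divided by the local background of each library. Among named genes 30 of 261 values moved. The AMG510 calls at GAR1, FBL, DDX21, HEATR1 and NOP2 and the drug-only calls at GNL3L, MPHOSPH10, NOC3L, NOC4L and NPM3 did not pass 5-fold. The cause of the other moves was not tested. The few tags at each summit, often under 20, limit every single-gene comparison.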

Other observations

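Outside promoters, 4 peaks lay inside the bodies of member genes. WDR75 had a DMSO peak of 11 tags in intron 15, and NOC3L an AMG510 peak of 9 tags in intron 8. In the IgG list, RRP1 had a peak of 8 tags in intron 4 and NOC3L one of 9 tags in intron 6. The AMG510 and IgG peaks of NOC3L held the same number of tags. None of the 4 had CACGTG within 100 bp of its summit.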
